A study of Mus musculus with 3 samples.

Results

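Elastic fibre and microfibril genes were examined in sorted stromal cells of mouse tumours. The list held 10 genes, Eln, Fbn1, Fbn2, Fbln1, Fbln2, Fbln5, Emilin1, Mfap2, Mfap4 and Mfap5. A gene was read from a probe set, a group of array probes for 1 transcript, whose annotation named that gene alone, and 9 of the 10 genes had such a probe set, exactly 1 each, among 22087 named genes in all. Fbn1, the gene of the main fibrillin of adult tissue, was not analysed here. Total RNA was measured on Affymetrix arrays in 3 samples of 1 group. That group was Dicer1 +/- stroma: live cells of digested tumours that carried neither PECAM1, a surface protein of endothelial cells, nor tdTomato, the red fluorescent protein used to sort the tumour cells apart. The genotype label Dicer1 +/- was shared by all 3 samples, the title calls the tumours ASD+/- without spelling out the abbreviation, and the labels give neither strain nor age. Stroma of ASD+/+ tumours, with which the title sets this group in comparison, was not analysed here, so no value below bears on the genotype.

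Elastic fibres give skin, vessels and lung their recoil. A core of cross-linked elastin, the product of Eln, is laid down on a scaffold of microfibrils, which are polymers of fibrillins decorated with small glycoproteins. Fibulins bring elastin, the scaffold and the cross-linking enzymes together, and microfibrils also hold latent TGF-beta in the matrix. In adult tissue the genes are expressed mainly by fibroblasts and vascular smooth muscle cells.

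Levels are log2 intensities as deposited, so that a difference of 1 is 2-fold. Probe sets differ in brightness, and levels of different genes were therefore not ranked against each other. Array medians lay between 5.34 and 5.36. Dicer1 itself was at 8.10, 8.10 and 8.08 in samples 1 to 3. Sample 1 differed from the other 2 in sex-linked transcripts, with Xist at 9.78 against 3.43 and 3.49, and the Y-linked Eif2s3y at 3.86 against 8.51 and 8.71. Sample 1 thus read as female and samples 2 and 3 as male, so sample 1 came from a different animal. The labels do not say that all 3 samples came from separate animals, and for samples 2 and 3 this stays unknown. Each SD measures the spread between these samples, some of which may be technical. Between samples 2 and 3 all of it may be. Each sample was measured on 1 array, so no test between samples could be made and every difference between them is a description without a replicate check. Fibroblast markers were present: Pdgfra, a receptor of fibroblasts, had a mean log2 intensity of 8.54 ± 0.71 and Dcn, a matrix proteoglycan, of 11.62 ± 0.41 (SD, n = 3 each). The samples were not fibroblasts alone. All 9 leukocyte markers were above the detection level on all 3 arrays, among them Ptprc, with a mean of 10.94 ± 0.33 (SD, n = 3). Pecam1, the gate's negative marker, was also above the detection level, at 8.02, 7.20 and 8.25 in samples 1 to 3.

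All 9 measured genes were detected on all 3 arrays, against 60.5% of all named genes. Detected means above the 95th percentile of olfactory, vomeronasal and taste receptor probe sets on that array, which stood at a log2 intensity of 5.16, 5.11 and 5.20. Shares of all named genes and of all genes, here and below, leave out these receptor genes, so that 20658 named genes remain. Of the 9 genes, 8 were highest in sample 2, where 32.5% of all genes detected on at least 1 array were highest, and 8 were lowest in sample 3, against 33.3% of all genes. The same 8 genes had the full order sample 2, then sample 1, then sample 3, an order found in 18% of all genes. Emilin1 was the exception. Members share their samples and are not replicates of a condition.

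Eln encodes tropoelastin, the monomer of the elastic core. Its log2 intensity was 9.07 in sample 1, 9.74 in sample 2 and 8.26 in sample 3, which gives a mean of 9.03 ± 0.74 (SD, n = 3). Sample 2 was high and sample 3 low, with sample 1 between them, and the level in sample 2 was 2.79-fold that in sample 3. This log2 range of 1.48 was larger than the range of 98.19% of all genes detected on at least 1 array.

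Fbn2 encodes a fibrillin best known from developing microfibrils. Its log2 intensity was 7.12, 7.17 and 6.79 in samples 1 to 3, with a mean of 7.03 ± 0.21 (SD, n = 3). Samples 1 and 2 lay 0.055 apart and sample 3 was lower, by 0.38 from sample 2, the smallest range among the 9 genes. The order of the samples was that of Eln, but the range lay at the 60.20th percentile of all genes.

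The 3 fibulin genes of the list shared the order of Eln. Fbln5 encodes a fibulin that binds tropoelastin and the cross-linking enzyme Loxl1. It had log2 intensities of 9.06, 9.57 and 8.31 in samples 1 to 3, and a mean of 8.98 ± 0.63 (SD, n = 3). Fbln2, whose product lies at the border of elastin and microfibrils and in basement membranes, was at 8.81, 9.24 and 8.04, with a mean of 8.70 ± 0.61 (SD, n = 3). Fbln1, whose product lies within the elastic core and also binds fibronectin, was at 8.38, 8.81 and 7.72, with a mean of 8.30 ± 0.54 (SD, n = 3). For each of the 3 fibulin genes sample 2 was the highest and sample 3 the lowest, and the level in sample 2 over that in sample 3 was 2.39-fold for Fbln5, 2.29-fold for Fbln2 and 2.12-fold for Fbln1. For each, sample 1 stood nearer to sample 2 than to sample 3.

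The small microfibril glycoproteins split by size of the difference. Mfap5 and Mfap2 are related genes whose products bind fibrillin. Mfap5 had log2 intensities of 11.19, 11.80 and 10.43 in samples 1 to 3, with a mean of 11.14 ± 0.68 (SD, n = 3), and was 2.58-fold higher in sample 2 than in sample 3. Mfap2 was at 8.52, 9.01 and 8.25, with a mean of 8.59 ± 0.38 (SD, n = 3), and the difference between the same samples was 1.69-fold. Mfap4, whose fibrinogen-like product binds elastin and collagen, was at 8.88, 9.23 and 8.47, with a mean of 8.86 ± 0.38 (SD, n = 3), also a 1.69-fold difference. In Mfap2, sample 1 was nearer to sample 3 (a log2 difference of 0.27) than to sample 2 (0.49), unlike in the other 7 genes with this order.

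Emilin1 encodes a glycoprotein at the interface of elastin and microfibrils that also restrains the processing of the TGF-beta precursor. It was at 6.69, 7.05 and 7.24 in samples 1 to 3, with a mean log2 intensity of 6.99 ± 0.28 (SD, n = 3). Here sample 3 was the highest and sample 1 the lowest, a 1.47-fold range, and sample 3 exceeded sample 2 by 0.19.

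**Figure D1:**
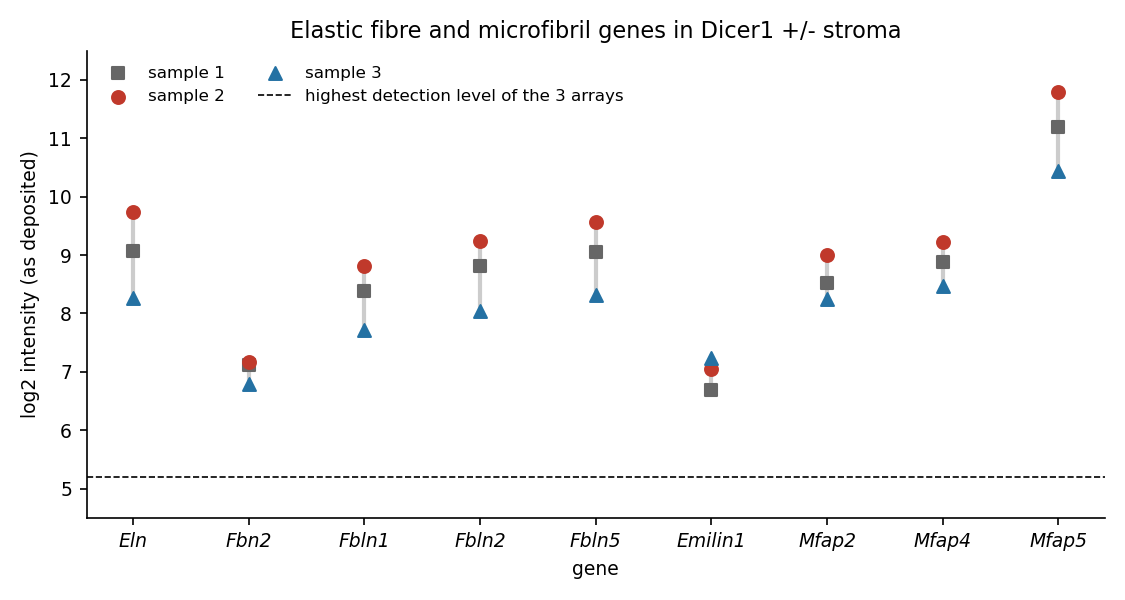
Log2 intensity (vertical axis) of the 9 measured elastic fibre and microfibril genes (horizontal axis) in sample 1 (square), sample 2 (circle) and sample 3 (triangle) of Dicer1 +/- stroma, with a grey bar over the range and a dashed line at the highest detection level, 5.20. Sample 2 is the highest and sample 3 the lowest point for 8 genes, and for Emilin1 sample 3 is the highest, at 7.24.

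Of the 9 genes, 5 had a log2 range above 1 (Eln, Mfap5, Fbln5, Fbln2 and Fbln1), where 5.7% of all genes detected on at least 1 array did. In each of the 5 this was the difference of sample 2 over sample 3, which exceeded 1 in 2.34% of all genes. The count rests on both samples: with sample 2 or sample 3 left out, 0 of the 9 genes had a range above 1. The median log2 difference of sample 2 over sample 3 was 1.08 over the 9 genes, from -0.19 for Emilin1 to 1.48 for Eln. Over all genes detected on at least 1 array it was 0.0, with the lower and upper quartiles at -0.19 and 0.19. Samples 2 and 3 were set against each other because an earlier description of these data had this contrast as the largest. The comparison with all genes is therefore no independent support.

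Likeness of pattern was measured as the Euclidean distance between the 3 deviations of each gene from its own mean, on the log2 scale. The closest pairs were Fbln2 with Fbln5 at a distance of 0.064, Eln with Mfap5 at 0.080 and Fbln5 with Mfap5 at 0.084. Mfap2 and Mfap4 lay 0.11 from each other but 0.53 and 0.51 from Eln. The widest distance was that of Eln from Emilin1, 1.26. Over 3 samples a pattern has few free values, and these distances are descriptions.

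Promoter sequence is shown for the 3 genes of this list that shared the order of Eln and whose stretch of 250 bases before the start overlapped no gene in the RefSeq table, among 6 members with an entry there. The sequences are from RefSeq, build GRCm38.p6, read 5′ to 3′ on the strand of the gene, and end at the base before the start. The Fbln1 stretch is chr15:85205699-85205948 on the plus strand, that of Fbln5 chr12:101819120-101819369 on the minus strand, and that of Mfap2 chr4:141010174-141010423 on the plus strand, each before the outermost start listed for its gene. Capitals mark matches, on either strand, to 6 short motifs: GGGCGG (the GC box), TATAAA (the TATA box), TGANTCA (AP-1), GGAATG (TEAD), CAGAC (SMAD) and the CArG box of serum response factor.
Fbln1: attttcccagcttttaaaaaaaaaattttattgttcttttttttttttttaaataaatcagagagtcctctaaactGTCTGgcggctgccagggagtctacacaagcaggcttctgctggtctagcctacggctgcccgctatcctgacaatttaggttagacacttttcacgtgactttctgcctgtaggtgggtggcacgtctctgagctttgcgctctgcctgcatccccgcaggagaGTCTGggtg
Fbln5: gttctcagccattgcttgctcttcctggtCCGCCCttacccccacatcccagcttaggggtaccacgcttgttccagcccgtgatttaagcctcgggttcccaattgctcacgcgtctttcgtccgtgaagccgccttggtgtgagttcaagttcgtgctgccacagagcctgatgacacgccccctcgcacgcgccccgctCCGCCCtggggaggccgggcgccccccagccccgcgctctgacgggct
Mfap2: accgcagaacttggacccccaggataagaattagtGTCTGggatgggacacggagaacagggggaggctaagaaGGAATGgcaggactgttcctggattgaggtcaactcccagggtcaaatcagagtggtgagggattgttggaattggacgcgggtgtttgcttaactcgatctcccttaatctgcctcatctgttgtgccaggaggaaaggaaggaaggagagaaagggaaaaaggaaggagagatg
The GC box was found in Fbln5 alone of these 3, beginning 221 and 48 bases before the start, and 32.7% of 32851 promoter stretches of this length held one. The SMAD motif was found in Fbln1, beginning 174 and 9 bases before the start, and in Mfap2, beginning 215 bases before it, against 42.2% of all promoters. The TEAD motif was found in Mfap2, beginning 176 bases before the start, against 12.6%. The letters of the TATA box (12.4% of all promoters), AP-1 (6.75%) and the CArG box (1.47%) were not in these 3 stretches, and no matches overlapped. No motif was present in all 3. A match is a run of letters and shows no binding.

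Markers of the cells that make elastic fibres differed between the samples in the same order. All 12 fibroblast markers were detected on all 3 arrays, against 60.5% of all named genes. Of these, 12 of 12 were lowest in sample 3 (33.3% of all genes) and 11 of 12 highest in sample 2 (32.5% of all genes). Thy1 had equal values in samples 1 and 2 and so counted for neither. The mean log2 intensity of the fibroblast markers was 10.02, 10.46 and 9.46 in samples 1 to 3. Among them Pdgfra was at 8.55, 9.24 and 7.82, Dcn at 11.64, 12.02 and 11.20, and Lum, another matrix proteoglycan, at 10.50, 10.83 and 9.91. All 11 pericyte and smooth muscle markers were detected and highest in sample 2, and sample 3 was the lowest for 10 of 11, against the same shares of all genes. The list means were 8.45, 9.19 and 8.05. Rgs5, a pericyte gene, was at 9.93, 10.64 and 9.47, Pdgfrb, the pericyte growth factor receptor, at 8.87, 9.67 and 8.70, and Cspg4, the proteoglycan NG2, at 7.01, 7.86 and 7.52. In bulk samples, fewer cells of a type and less RNA per cell cannot be told apart. The part of these cells in the differences of the elastic fibre genes was not tested.

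The means of the tendon list shared this order, though only 2 of its 5 markers did, and the means of the remaining marker lists had others. Of 5 tendon markers all were detected. Sample 2 was the highest for 4 (32.5% of all genes) and sample 3 the lowest for 3 (33.3% of all genes), and the list means were 8.60, 8.83 and 8.12. Scx, the tendon transcription factor, was at 7.20, 7.39 and 6.41, Tnmd, a tendon membrane protein, at 8.72, 9.05 and 7.89, and Mkx, another tendon transcription factor, at 6.68, 6.32 and 5.56. Cartilage and bone markers were detected on all arrays in 5 of 7, and all 6 that were detected on at least 1 array were highest in sample 3, against 32.8% of all genes; Acan was at 8.10, 9.07 and 9.94, Col2a1 at 8.10, 9.11 and 9.66, and Sox9 at 7.58, 8.10 and 8.35. Their list means were 6.80, 7.38 and 7.87. Of 9 endothelial markers 6 were detected on all arrays and 7 were highest in sample 3 (32.8% of all genes). Among them were Cdh5 at 6.17, 6.75 and 7.81 and Kdr at 5.47, 5.21 and 6.09, and the list means were 5.56, 5.54 and 6.30. Skeletal muscle markers were detected on all arrays in 6 of 7 (list means 6.52, 6.31 and 6.98), leukocyte markers in 9 of 9 (10.12, 9.42 and 9.55) and epithelial markers in 2 of 4 (5.82, 5.76 and 6.21). The share of all named genes detected on all 3 arrays was 60.5%.

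**Figure D2:**
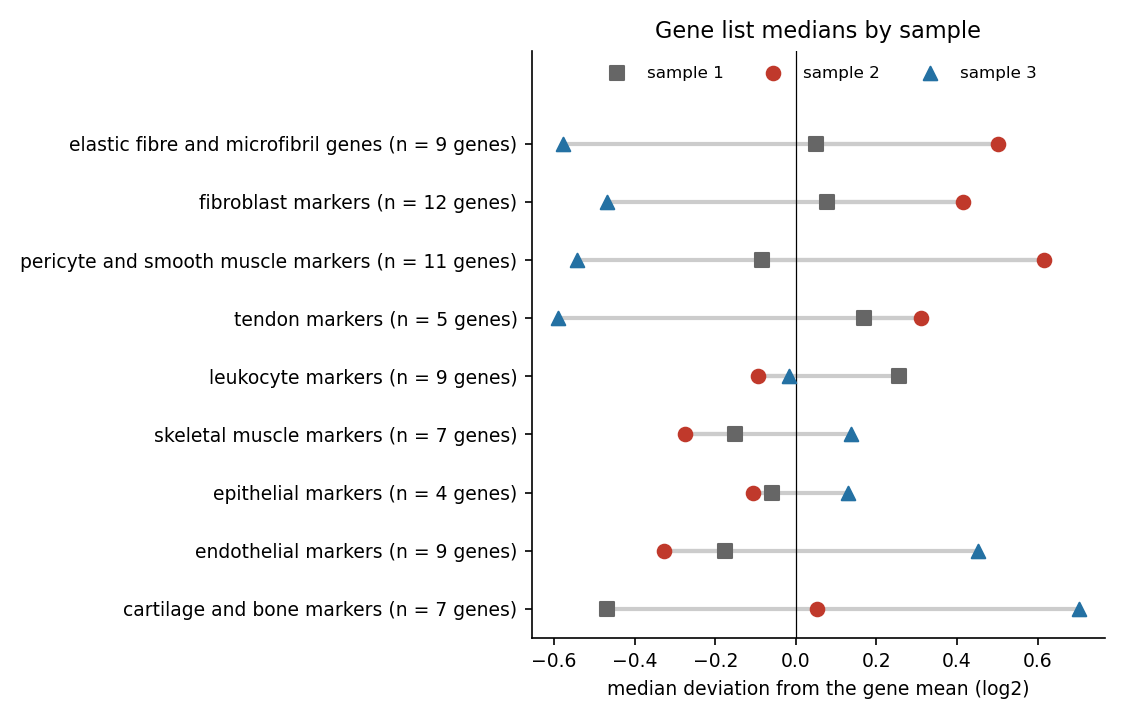
Median over the genes of each list of the deviation from the gene's mean over the 3 samples (horizontal axis, log2), for the elastic fibre and microfibril genes and 8 marker lists (vertical axis), in sample 1 (square), sample 2 (circle) and sample 3 (triangle). The elastic fibre genes stand at 0.050, 0.50 and -0.58 in samples 1 to 3, with the same order in the fibroblast list (0.077, 0.41 and -0.47) and the pericyte and smooth muscle list (-0.084, 0.62 and -0.54).

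The members were then set beside the markers gene by gene. Between samples 2 and 3 the median log2 difference was 0.87 over the 12 fibroblast markers, from 0.38 for Fap to 1.96 for Cd34, and 1.15 over the 11 pericyte and smooth muscle markers, from 0.34 for Cspg4 to 2.12 for Myh11, the smooth muscle myosin. The 8 members with the order of Eln lay inside both of these ranges, from 0.38 for Fbn2 to 1.48 for Eln. Emilin1, at -0.19, lay below every marker of both lists. The differences of Eln, Mfap5, Fbln5, Fbln2 and Fbln1 were above the median of the fibroblast markers and those of Mfap2, Mfap4 and Fbn2 below it, while Mfap2 and Mfap4 (0.76 each) still exceeded the fibroblast markers Col1a1 (0.64), Thy1 (0.61) and Fap. Cd34, Fap, Col1a1, Thy1, Cspg4 and Myh11 were named here after their values were seen.

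Subtracting a list's median deviation in each sample moves every member by the same amount and leaves their distances from each other as they were. With the fibroblast list subtracted, the median over the 9 genes was -0.027, 0.087 and -0.11 in samples 1 to 3 on the log2 scale, against 0.050, 0.50 and -0.58 before. The difference between samples 2 and 3 was then 0.59 for Eln and 0.20 for Fbln1. With the pericyte and smooth muscle list subtracted it was 0.32 for Eln and -0.078 for Fbln1. The fibroblast list includes collagens, proteoglycans and Dpt, the matrix protein dermatopontin. Further reference lists were chosen after seeing the data: with the 6 fibroblast markers of the cell surface the difference left was 0.34 for Eln and -0.052 for Fbln1, and with Dpt added to these 6 it was 0.48 and 0.083. The sign left for Fbln1 thus depended on the reference list.

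**Figure D3:**
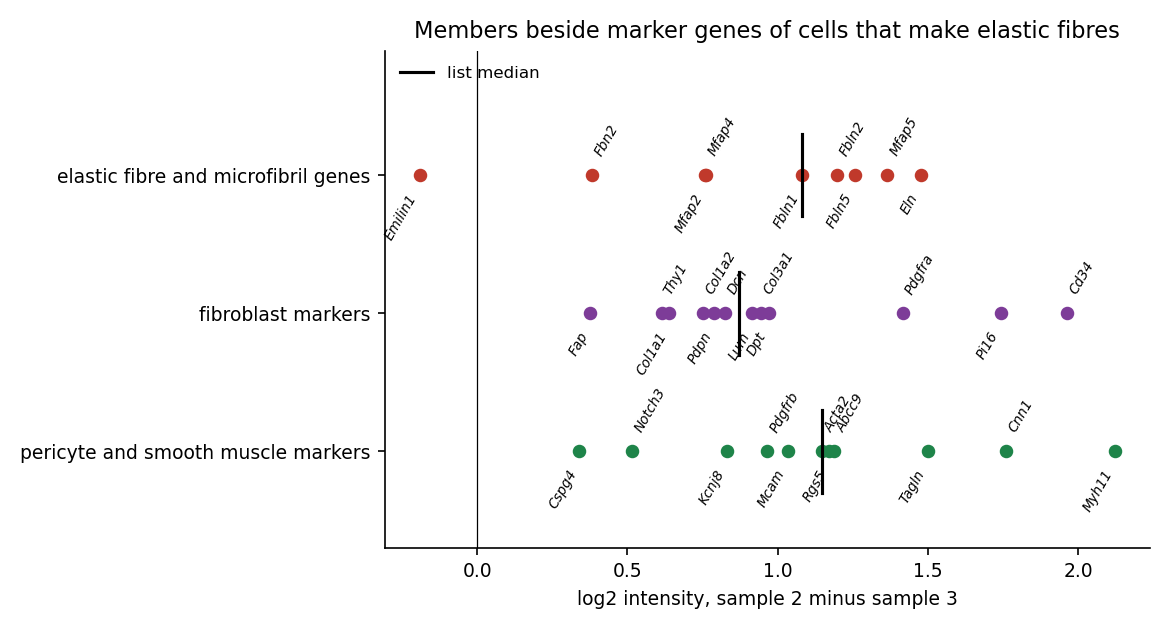
Log2 difference of sample 2 over sample 3 (horizontal axis) for each of the 9 elastic fibre and microfibril genes, the 12 fibroblast markers and the 11 pericyte and smooth muscle markers (vertical axis). Each point is a gene, and the black bar is the median of its list, 1.08, 0.87 and 1.15 from top to bottom. Emilin1 (-0.19) is the only gene of the 3 lists below 0.

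The wider machinery of elastic fibres was read from a list of 62 other genes in 11 roles. Of these, 56 were measured and 53 detected on all 3 arrays, against 60.5% of all named genes. Of these 53, sample 2 was the highest for 34 (32.5% of all genes), sample 3 the lowest for 27 (33.3% of all genes), 23 had the order of Eln (18% of all genes), and 11 had a log2 range above 1 (5.7% of all genes). Their median log2 difference of sample 2 over sample 3 was 0.23. The roles differed from each other.

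All 4 genes of the latent TGF-beta binding protein family were highest in sample 2 (32.5% of all genes). Ltbp4, which assists Fbln5 in elastin assembly, was at 9.14, 9.92 and 8.38 in samples 1 to 3, with a mean log2 intensity of 9.15 ± 0.77 (SD, n = 3) and a 2.92-fold difference of sample 2 over sample 3. Ltbp1 was at 7.84, 8.40 and 7.33. Of 3 other fibulins and hemicentins measured all were lowest in sample 3 (33.3% of all genes). Efemp1, a fibulin of loose connective tissue, was at 8.92, 8.74 and 7.29, so that samples 1 and 2 lay close together, and Hmcn1, a hemicentin, was at 6.04, 6.53 and 5.79.

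Enzymes that cross-link elastin and collagen had 3 of 4 measured members in the order of Eln (18% of all genes). They had the largest median difference of sample 2 over sample 3 among the 11 roles, 1.00. The latent TGF-beta binding proteins had 0.82 and the other fibulins and hemicentins 0.74. Loxl1, the lysyl oxidase that Fbln5 binds, was at 9.46, 10.15 and 8.78, with a mean log2 intensity of 9.46 ± 0.69 (SD, n = 3), a 2.59-fold difference of sample 2 over sample 3. Loxl4 went another way, at 5.99, 6.68 and 7.16, highest in sample 3 as Emilin1 was. Among 9 ADAMTS and ADAMTS-like genes, whose products bind microfibrils, sample 2 was the highest for 5 (32.5% of all genes) and sample 3 the lowest for 6 (33.3% of all genes). Adamtsl3 was at 7.32, 7.63 and 6.56 and Adamtsl5 at 6.74, 7.19 and 6.31, and the median difference of sample 2 over sample 3 in this role was 0.23.

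Of 3 detected relatives of Emilin1, 0 had the order of Eln (18% of all genes). Among these relatives 1 was highest in sample 2 and 2 were highest in sample 3. Emilin2, a related glycoprotein, was at 9.29, 9.67 and 9.80 in samples 1 to 3, the order of Emilin1, and Mmrn2, a multimerin of endothelium, was at 6.18, 5.76 and 6.52. The endothelial list was likewise highest in sample 3 (6.30), and its part in these values was not tested. Of 3 TGF-beta ligands, Tgfb1 was at 9.40, 9.60 and 9.87, with the highest level in sample 3, and Tgfb3 was at 9.41, 9.61 and 8.95, with the order of Eln.

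Proteases that can cleave elastin showed no common order: of the 9 detected ones 4 were highest in sample 2 and 4 in sample 3 (32.8% of all genes). Elane, the neutrophil elastase, was at 9.33, 9.93 and 10.81 in samples 1 to 3, with a mean log2 intensity of 10.02 ± 0.75 (SD, n = 3), and Prtn3, another serine protease of neutrophil granules, was at 7.98, 8.22 and 9.22. Sample 3 was thus the highest for these genes and the lowest for Eln. Of the 9 leukocyte markers only 1 was highest in sample 3, the myeloid gene Itgam, at 9.66, 9.81 and 10.23. The myeloid genes Csf1r (10.35, 10.54 and 9.99) and Adgre1 (9.46, 9.19 and 8.47) were lowest in sample 3. Cd68, also myeloid, was at 10.80, 10.88 and 10.82, and S100a8 of neutrophils at 12.47, 12.43 and 12.43. The lymphocyte genes Cd3e (8.59, 6.49 and 8.04), Cd79a (9.48, 8.57 and 8.44) and Ms4a1 (9.05, 6.34 and 6.45) were highest in sample 1. The part of neutrophils in the values of Elane and Prtn3 was not tested.

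Receptors and matrix partners had median differences of sample 2 over sample 3 of 0.28 and 0.36. Of 8 detected receptor genes 7 were highest in sample 2 (32.5% of all genes) and none had a range above 1 (5.7% of all genes). Itgb5, an integrin chain, was at 9.37, 9.70 and 9.01 and Itgb8, an integrin chain that activates TGF-beta, at 6.55, 7.22 and 6.90. All 5 matrix partners were highest in sample 2, with Hspg2, the basement membrane proteoglycan perlecan, at 9.22, 9.80 and 8.92 and Vcan, the proteoglycan versican, at 9.24, 9.70 and 9.01. Genes of secretion and copper supply stayed within a log2 range of 0.20, with the copper pump Atp7a at 7.96, 7.92 and 8.11 and Slc2a10, a sugar transporter, at 6.22, 6.42 and 6.27. Mfap3 and Mfap3l, which share the name but do not belong to the glycoproteins above, were at 7.71, 7.85 and 7.71 and at 5.21, 5.27 and 5.34.

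**Figure D4:**
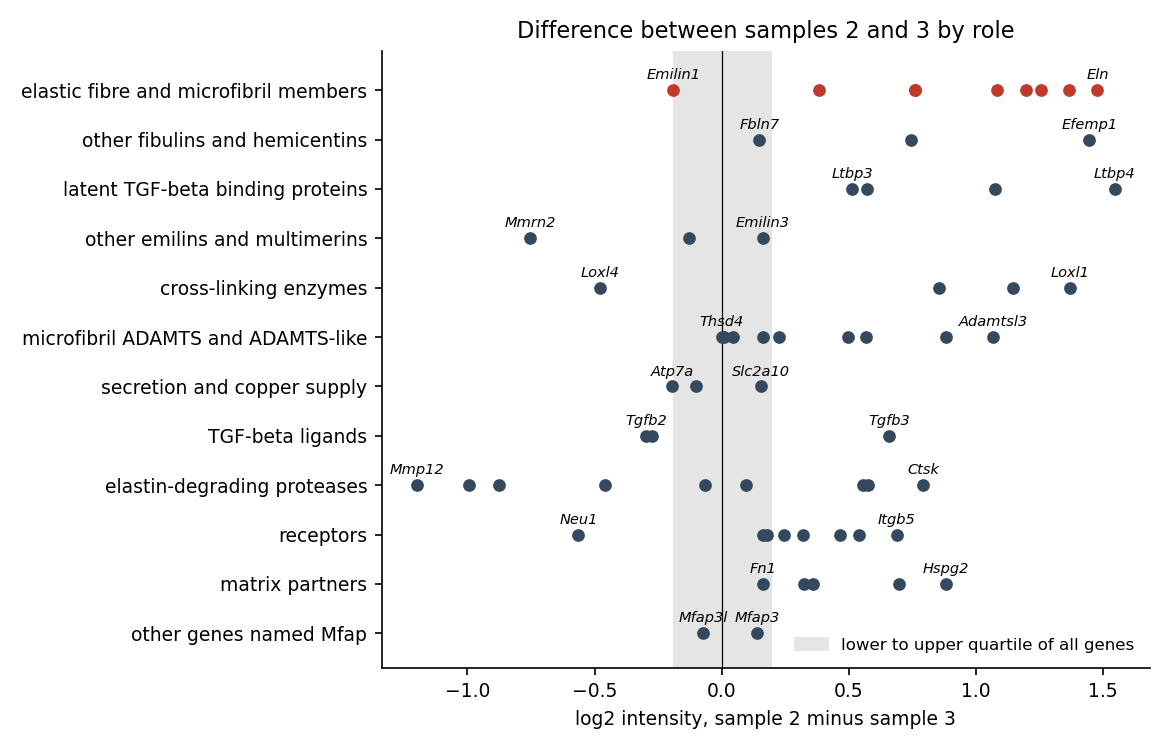
Log2 difference of sample 2 over sample 3 (horizontal axis) for the 9 members (top row) and for other elastic fibre genes detected on at least 1 array, by role (vertical axis). Each point is a gene, the lowest and the highest of each role are named, Mfap2 and Mfap4 share a point, and the grey band runs from the lower to the upper quartile of all genes, -0.19 to 0.19. Members reach 1.48 (Eln), latent TGF-beta binding proteins 1.55 (Ltbp4), and the proteases extend to -1.20 (Mmp12, the macrophage elastase).

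Among 12499 other genes detected on all 3 arrays, 23 lay within a distance of 0.1 of the pattern of Eln. The closest were Tagln at 0.016, a smooth muscle actin-binding protein that is also in the pericyte and smooth muscle list, Il33 at 0.022, an alarmin cytokine of stromal cells, Fxyd2 at 0.022, a subunit of the sodium pump, Tppp3 at 0.024, a tubulin-binding protein, and Ndn at 0.042, the imprinted gene of necdin. Tagln had log2 intensities of 9.19, 9.87 and 8.37 in samples 1 to 3, and Il33 of 7.19, 7.82 and 6.37. Of the members, Mfap5 was the closest to Eln, at rank 15 among all genes detected on all 3 arrays, and Fbln5 followed at rank 37. The likeness is over 3 samples and says nothing of shared function.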

How the data were processed

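Total RNA of 3 sorted samples of 1 group was measured on 1 Affymetrix array each. The deposited table holds log2 intensities, the scale being taken from the range of the values. Partek was used, per the submitters' processing notes; how the authors corrected background, normalized the arrays and combined probes is not given in the sources used here. Of 31873 probe sets, 23094 had 1 gene symbol in GEO's platform annotation, 1764 had several and 7015 none here, and only the first were used, with the brightest probe set standing for a gene that had more than 1. In 4938 probe sets at least 2 arrays had exactly equal values, and none of these belonged to the 9 measured members. Other genes named here had such ties, among them Dicer1, Thy1 and Mfap3. A tie for the highest or the lowest value counted for no sample, in the lists and in the shares of all genes. Depth has no counterpart on arrays, where the number of arrays limits the precision.

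Detection used the 95th percentile of 1438 receptor probe sets. Counts of genes with a range above 1, of the highest and lowest sample, and distances between patterns were computed over genes detected on at least 1 array (13636), or on all 3 for distances, in Python 3.11.15 with pandas 2.3.3, after the functions were tested on simulated data. With 1 group no test was made. The members, the marker lists and the list of other elastic fibre genes were chosen with earlier results of these data known. So was the contrast of sample 2 over sample 3. Named genes were all members, the 2 detected genes with the largest range in each role, the first 3 measured markers of the lists described in detail, and the 5 genes nearest to Eln. Mmp12 and the leukocyte markers were named after their values were seen. Alternatives took another detection level, normalization, probe set summary, size threshold or reference list, or left out 1 sample at a time.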

Additional observations from a re-analysis of the deposited data

How the results depend on the processing

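No paired analysis was possible because the samples form 1 group. The count of members detected, highest in sample 2 or lowest in sample 3 stayed within 1.5 times the main count under each alternative run. So did the count of other elastic fibre genes detected (41 to 54, lowest with the 99th percentile as detection level) and the count near Eln (22 or 23). The median difference of sample 2 over sample 3 (1.08 to 1.14) stayed within 1 SD, 0.54, of the members' median deviations over the 3 samples. That SD is built from the same differences between samples and is a wide limit. Each member's mean moved by less than its SD, which must hold when 1 of 3 samples is left out and so shows no stability. Some alternatives could not change these results. Each member had 1 probe set, all 9 measured members were detected on all 3 arrays, and median centring leaves a mean over the 3 samples as it was. Leaving out another sample cannot lower the count of members detected, highest in sample 2 or lowest in sample 3. With 9 measured members those counts also cannot rise to 1.5 times the main ones, so their agreement there shows no stability. The count of members with a range above 1 was 7 at a threshold of 1.5-fold, and 0 to 5 when 1 sample was left out. It was 5 without sample 1, and 0 without sample 2 or without sample 3. In no member did sample 1 lie more than 0.81 from sample 2 or sample 3 on the log2 scale, the largest being Eln against sample 3. Relative to marker lists the direction of the median over members depended on the list: with the pericyte and smooth muscle list it was 0.13 in sample 1 and -0.11 in sample 2, and with the 6 fibroblast markers of the cell surface, an alternative added after seeing the data, it was -0.069 in sample 2, against -0.027 and 0.087 with the fibroblast list. With Dpt added to those 6 it was 0.061 in sample 2. Leaving out Emilin1, also added, gave 1.14 for the median difference. With 3 arrays and no repeat array of a sample, no difference between samples has an error of its own.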
